A study of Mus musculus with 12 samples.

Results

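Mitochondria of inguinal white adipose tissue (iWAT) were examined through 10 genes of mitochondrial fusion, fission and mitophagy, taken as a list of symbols whose rows were read from the normalized counts. All 10 were found among the 14159 genes measured. The fusion genes were Mfn1, Mfn2 and Opa1, the fission genes Dnm1l, Fis1, Mff, Mief1 and Mtfp1, and the mitophagy genes Pink1 and Bnip3. RNA was sequenced from whole iWAT of 4 groups of mice on a C57BL/6 background, with 3 replicates per group. Atf4AKO mice carried floxed Atf4 alleles and Adipoq-Cre, which deletes in adipocytes of white and brown depots and leaves Atf4 in the other cells of the tissue, and floxed littermates served as Atf4WT mice. Mice of both genotypes stayed at room temperature (RT) or were kept at 5 °C for 24 h. The age and sex of the sequenced mice are not given in the sources used here. The questions were how cold exposure changed these genes in each genotype, and whether loss of the stress-response transcription factor ATF4 from adipocytes altered their levels or their cold response.

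Mitochondria form a network that is joined by fusion and cut by fission. The mitofusins (Mfn1, Mfn2) tether and fuse outer membranes, and Opa1 fuses inner membranes and shapes cristae. The dynamin DRP1, encoded by Dnm1l, constricts mitochondria after receptors such as Mff, Mief1 and Fis1 bring it to the outer membrane, while the inner membrane protein Mtfp1 promotes fission from within. Mitophagy removes mitochondria through autophagy, either by the kinase PINK1, which marks damaged organelles, or by receptors such as BNIP3, whose gene is also known to respond to hypoxia. White adipocytes that turn thermogenic in the cold gain mitochondria, and beige adipocytes that lose their thermogenic features remove them by mitophagy.

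The libraries held 25719476 to 29105147 reads on the listed genes. Counts were divided by the size factor of the library by the authors, and all levels given here are such normalized counts. Atf4 itself was 6970.1 ± 1054 in cold-exposed Atf4WT iWAT and 1182 ± 395 in cold-exposed Atf4AKO iWAT (mean ± SD, n = 3), and 4815 ± 791 and 1568 ± 87.9 at RT, so the groups did not overlap at either temperature. All 10 markers of white adipocytes were listed, and the summed level of 8 thermogenic genes went from 7358 to 10255 at RT to 107468 to 171772 after cold. Some libraries differed in other tissue content, and the values that touch the members are given with them. Summed counts of 11 listed B cell markers were 4953 to 16374 in cold-exposed Atf4WT libraries, 416 to 4947 in Atf4WT at RT and 173 to 1016 in the 6 Atf4AKO libraries. Summed counts of 9 listed muscle markers were 131564 in Atf4WT RT replicate 2, 44527 in Atf4WT cold replicate 0, 4741 in Atf4AKO cold replicate 1 and at most 871 in the other 9 libraries. Ckm, Myh4 and Pvalb, also on the muscle list, were not listed.

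Cold exposure for 24 h raised 6 of the 10 genes in Atf4WT iWAT and lowered both mitophagy genes. Mtfp1 rose 3.83-fold, Mfn1, Opa1, Dnm1l, Mff and Mief1 rose 1.26- to 1.4-fold, Bnip3 fell to 0.526 of its RT level and Pink1 to 0.716. Mfn2 and Fis1 did not pass the test, which was limma on log2(normalized count + 1) with a Benjamini-Hochberg adjusted p-value under 0.05 over 13404 genes. The same threshold was passed by 31.9% of all genes in this comparison, 17% higher and 14.9% lower, against 6 higher and 2 lower of 10 here. By the fold change over 1.5 and unadjusted p-value under 0.05 used for DEGs, Mtfp1 was higher and Bnip3 lower, where 10.9% of all genes were higher and 10.3% lower. RT and cold-exposed libraries did not overlap for 8 of the 10 genes, beside 46.8% of all genes. The median log2 fold change of the 10 genes was 0.36, beside 0.0026 over all genes tested. In whole tissue, fewer cells of a type and less RNA per cell cannot be told apart.

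**Figure D1:**
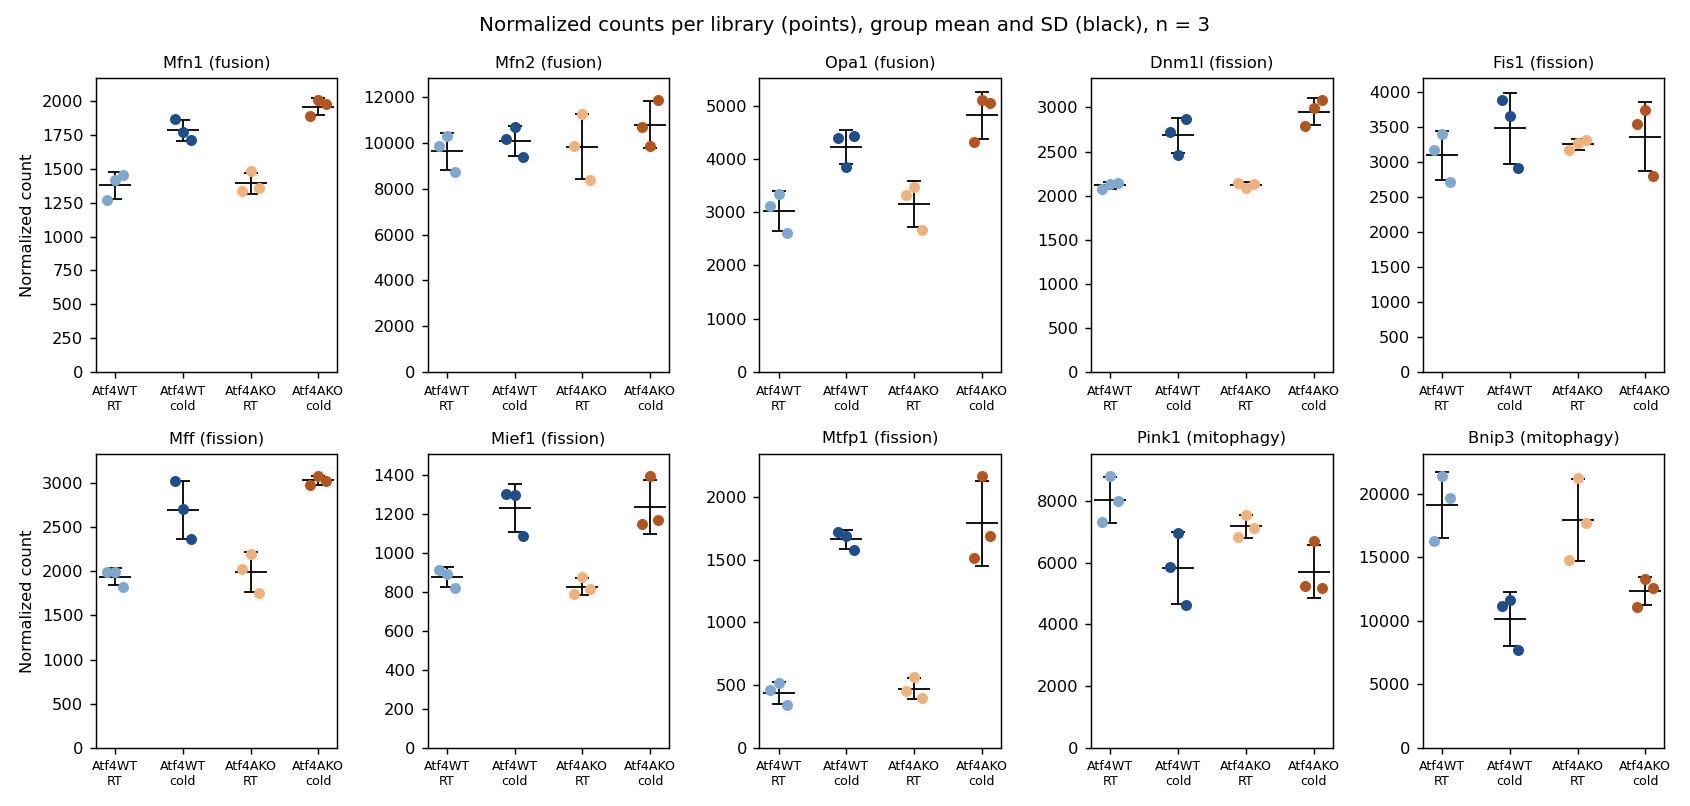
Normalized counts of the 10 genes on linear axes from 0, with 1 point per library for Atf4WT at RT, Atf4WT after cold, Atf4AKO at RT and Atf4AKO after cold, and black bars for the group mean ± SD (n = 3). Mtfp1 lies at 344 to 563 at RT and 1513 to 2170.0 after cold, and Bnip3 lies at 14810.5 to 21390.4 at RT and 7688 to 13270.4 after cold.

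Among the fusion genes, Opa1 was 3124, 3337 and 2601 in the Atf4WT libraries at RT and 4388, 3845 and 4435 after cold. Every cold-exposed library lay above every RT library, and the log2 fold change was 0.49 (SE 0.13, adjusted p = 0.0133). Mfn1 was 1268, 1415 and 1454 at RT and 1869, 1775 and 1711 after cold, again without overlap, with a log2 fold change of 0.37 (SE 0.076, adjusted p = 0.00431). The paralogous mitofusin Mfn2 was 9882, 10298 and 8716 at RT and 10185, 10705 and 9379 after cold. These groups overlapped, and Mfn2 did not pass the test, with a log2 fold change of 0.068 (95% interval -0.19 to 0.33, adjusted p = 0.689).

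Mtfp1 gave the largest change of the 10 genes, at the 98.1th percentile of all log2 fold changes. It was 460.3, 514 and 344 in Atf4WT iWAT at RT and 1725, 1687 and 1576 after cold. The lowest cold-exposed library was above 3 times the highest RT library, and the log2 fold change was 1.94 (SE 0.18, adjusted p = 6.45e-05). Dnm1l, whose product cuts the membrane, went from 2074, 2129.7 and 2148 to 2718, 2464 and 2866, with no overlap and a log2 fold change of 0.34 (SE 0.071, adjusted p = 0.00484).

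Of the DRP1 receptors, Mff and Mief1 were called and Fis1 was not. Mff was 1996, 1993 and 1826 at RT and 3023, 2709 and 2366 after cold (log2 fold change 0.47, SE 0.10, adjusted p = 0.00584). Mief1 was 913, 891 and 819 at RT and 1300.5, 1295 and 1085 after cold (log2 fold change 0.48, SE 0.10, adjusted p = 0.00522). Cold-exposed and RT libraries stood apart for both, with cold replicate 2 the lowest of its group. Fis1, 3173, 3399 and 2718 at RT and 3884, 3656 and 2909.9 after cold, overlapped between the groups. Its log2 fold change of 0.16 did not pass the test (95% interval -0.13 to 0.46, adjusted p = 0.369).

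Both mitophagy genes were lower after cold in Atf4WT iWAT. Bnip3 was 16256, 21390.4 and 19635 at RT and 11163, 11598 and 7688 after cold. The groups did not overlap, replicate 2 was the lowest after cold, and the log2 fold change was -0.93 (SE 0.18, adjusted p = 0.00329). Pink1 was 7331, 8816 and 7989.5 at RT and 5863, 6970.5 and 4632 after cold, also without overlap, with a log2 fold change of -0.48 (SE 0.15, adjusted p = 0.0279). The call of Pink1 was lost when any of 4 Atf4WT libraries was left out: RT replicate 1 (adjusted p = 0.0984), RT replicate 2 (0.0587), cold replicate 0 (0.053) or cold replicate 2 (0.0958). It was also lost in a fit of the Atf4WT libraries alone (0.0591).

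Other cell content also differed among the Atf4WT libraries. The lymphocyte score, the mean log2 value of 23 B and T cell markers, was 4.004 to 7.16 at RT and 7.19 to 9.55 after cold, and cold replicate 2 had the highest score. Among the 3 cold-exposed Atf4WT libraries it was the lowest for 8 of the 10 genes and the highest for Opa1 and Dnm1l. The closest scores of the 2 groups were 7.16 in RT replicate 2 and 7.19 in cold replicate 0, both also high in muscle markers. In these libraries Bnip3 was 19635 and 11163, Pink1 7989.5 and 5863, and Mtfp1 344 and 1725. The scores at RT and after cold did not overlap, so score and cold cannot be fully told apart here. The values with the score are therefore a description. With this score as a covariate 4 genes were called higher and 0 lower by limma, beside 10.3% and 3.74% of all genes. The 4 genes were Opa1, Mff, Mief1 and Mtfp1, with log2 fold changes of 0.82, 0.73, 0.73 and 2.49, each above its value without the covariate. Fis1 and Mfn2 went to 0.47 and 0.28 without passing the test (adjusted p = 0.127 and 0.316), and the log2 fold changes of Bnip3 and Pink1 were -0.65 (adjusted p = 0.147) and -0.31 (0.412). Those of Mfn1 and Dnm1l were 0.41 (0.0533) and 0.34 (0.0762). Markers of white adipocytes had log2 fold changes on both sides of 0. In Atf4WT iWAT their cold responses on the log2 scale ran from -1.12 to 0.53 (median -0.050), and 2 of the 10 were called lower, Adipoq (-0.60, adjusted p = 0.0148) and the adrenergic receptor gene Adrb3 (-1.04, 0.0163), which are named here after their values were seen. In Atf4AKO iWAT they ran from -0.76 to 0.61 (median -0.092), with -0.36 for Adipoq (adjusted p = 0.119) and -0.76 for Adrb3 (0.0665). Without both libraries of high muscle content, RT replicate 2 and cold replicate 0, a choice made after seeing the data, which leaves 2 libraries against 2, 4 genes were called: Mtfp1, Mfn1 and Dnm1l higher and Bnip3 lower, beside 12.7% of all genes higher and 11.3% lower. Opa1 (0.35, adjusted p = 0.102), Mff (0.34, 0.0563), Mief1 (0.39, 0.0532) and Pink1 (-0.50, 0.0917) kept their direction, while Mfn2 and Fis1 turned to -0.0098 and -0.0099.

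In Atf4AKO iWAT, cold raised Mfn1, Opa1, Dnm1l, Mff, Mief1 and Mtfp1, and lowered Bnip3. Thus 6 of 10 genes were called higher and 1 lower, beside 25.9% of all genes called, 14.8% higher and 11% lower. When the libraries were rescaled to the same 75th percentile, the split of all genes called moved from 1988 higher and 1479 lower to 1715 higher and 1975 lower, and the 10 genes kept their calls. DEGs by the fold change over 1.5 were Opa1, Mff and Mtfp1, all higher, where 8.3% of all genes were higher, and 0 of 10 were lower, beside 8.92% of all genes. RT and cold-exposed libraries did not overlap for 8 of 10 genes, beside 41.7% of all genes. The median log2 fold change of the 10 genes was 0.48, beside -0.032 over all genes tested. The Atf4WT and Atf4AKO responses have no library in common, but the fit gave them a joint estimate of the spread.

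**Figure D2:**
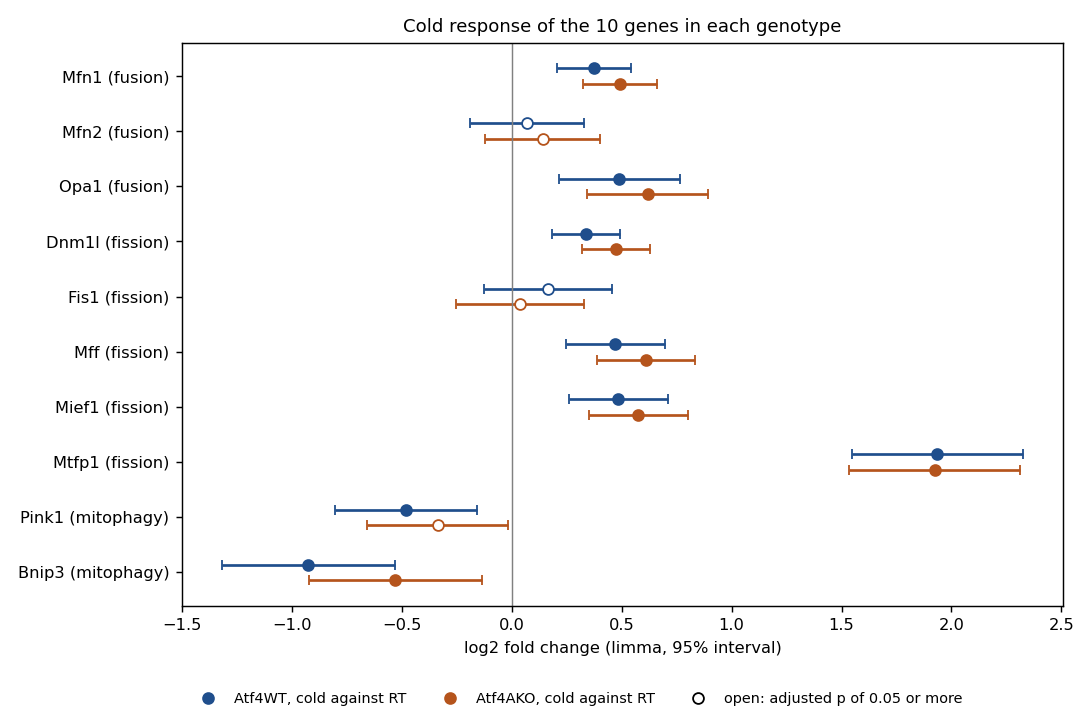
Log2 fold change of cold-exposed over RT libraries for the 10 genes in Atf4WT (blue) and Atf4AKO (orange) iWAT, with 95% intervals from limma (n = 3 per group); filled points passed an adjusted p of 0.05. Mtfp1 stands alone at 1.94 and 1.92, 5 genes lie between 0.34 and 0.62, and Pink1 and Bnip3 lie below 0.

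Mtfp1 was 455, 563 and 394 in Atf4AKO iWAT at RT and 1513, 2170.0 and 1692 after cold, a 3.8-fold rise (log2 fold change 1.92, SE 0.18, adjusted p = 7.16e-05). Opa1 went from 3322, 3471 and 2661 to 4311, 5101 and 5045 (log2 fold change 0.62, SE 0.13, adjusted p = 0.00503). Mff went from 2022, 2199 and 1756 to 2983, 3083 and 3027 (log2 fold change 0.61, SE 0.10, adjusted p = 0.00183). The groups stood apart for all 3, and the spread of Mtfp1 after cold came from replicate 1, which was the highest library of all 12. That library also had the highest summed thermogenic level (171772), with summed muscle counts of 4741 and macrophage counts of 4410. Mfn1 rose from a mean of 1393 ± 79.9 to 1959 ± 61.7 (adjusted p = 0.00123). Dnm1l rose from 2123 ± 30.1 to 2953 ± 151 (adjusted p = 0.00101). Mief1 rose from 826 ± 42.7 to 1235 ± 138 (adjusted p = 0.00257). None of these overlapped between RT and cold.

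Mfn2 and Fis1 again did not pass the test. Mfn2 was 9861, 11268 and 8399.6 at RT and 10676, 9859 and 11866 after cold, with a log2 fold change of 0.14 (95% interval -0.12 to 0.40, adjusted p = 0.406). Fis1 was 3171, 3273 and 3317 at RT and 3541, 3748 and 2802 after cold, with a log2 fold change of 0.037 (95% interval -0.26 to 0.33, adjusted p = 0.86), which became -0.023 after rescaling to the 75th percentile. The cold-exposed libraries of Fis1 reached both above and below all 3 RT libraries.

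Bnip3 was 14810.5, 21232 and 17714 in Atf4AKO iWAT at RT and 11095, 13270.4 and 12579.9 after cold, without overlap. Its log2 fold change of -0.53 (SE 0.18) passed narrowly (adjusted p = 0.0494) and was lost without the filter on expression (0.0512) and in 9 of the 12 fits that left out 1 library. Among those fits the adjusted p reached 0.159 without Atf4AKO RT replicate 1, 0.126 without cold replicate 0, 0.0968 without RT replicate 2, 0.0912 without cold replicate 2 and 0.0765 without cold replicate 1. The other 4 left out an Atf4WT library and gave 0.0525 to 0.0595. Pink1 was 6835, 7560.3 and 7131 at RT and 5237, 6719 and 5189 after cold. These libraries did not overlap, and the log2 fold change of -0.34 did not pass the test (SE 0.15, adjusted p = 0.113). In Atf4AKO iWAT 0 of 23 lymphocyte markers were called between cold and RT by limma, edgeR or DESeq2 (1 at an unadjusted p under 0.05 by each), and the lymphocyte score was 4.10 to 5.26 at RT and 3.62 to 5.08 after cold.

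Levels can be compared between genes only per length, and were divided here by the length in kb of all annotated exons of each gene, merged over its transcripts. The length of the transcripts present in the tissue was not used, so the order of genes depends on the annotation. In Atf4WT iWAT at RT, Bnip3 was the most abundant with 8430.0 ± 1152 normalized counts per kb (n = 3), followed by Pink1 with 3009.9 ± 278. Mfn2 (1854 ± 158) and Fis1 (1807 ± 202) overlapped, as did Dnm1l (407 ± 7.47) and Opa1 (384 ± 48.1). Mtfp1 (253 ± 50.0) overlapped with Mfn1 (226 ± 16.0), and Mff (199 ± 9.98) and Mief1 (108 ± 6.10) came last. After cold, Bnip3 still led with 4481 ± 946 per kb, and Pink1 (2178 ± 438) overlapped with Fis1 (2032 ± 297) and Fis1 with Mfn2 (1943 ± 129). Mtfp1 (956 ± 44.6) stood above Opa1 (536 ± 41.6) and Dnm1l (516 ± 39.1) in every library, whereas at RT it had stood below them in every library. The Atf4AKO libraries showed the same moves: Mtfp1 passed Opa1 and Dnm1l, and Pink1 no longer stood apart from Mfn2.

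The members with a close relative could be compared within each library, where the size factor cancels. These ratios were chosen after their values were seen, and with 3 libraries against 3 an exact permutation test cannot go below p = 0.1, so they are a description. The log2 ratio of Bnip3 to Bnip3l, a related mitophagy receptor, was 2.18 ± 0.24 at RT and 1.14 ± 0.19 after cold in Atf4WT iWAT, and 1.99 ± 0.14 and 1.29 ± 0.03 in Atf4AKO iWAT (SD, n = 3). RT and cold did not overlap in either genotype. Bnip3l itself was 4213 ± 614 at RT and 4550.2 ± 458 after cold in Atf4WT iWAT. The log2 ratio of Mief1 to Mief2, which encodes the other DRP1 receptor of this pair, was 0.51 ± 0.10 at RT and 0.0018 ± 0.046 after cold in Atf4WT, and 0.34 ± 0.09 and -0.15 ± 0.07 in Atf4AKO iWAT. Again RT and cold did not overlap in either genotype. The log2 ratio of Mfn1 to Mfn2 was -2.80 ± 0.20 and -2.50 ± 0.08 in Atf4WT iWAT, with overlap, and -2.81 ± 0.16 and -2.46 ± 0.15 in Atf4AKO iWAT, without overlap.

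**Figure D3:**
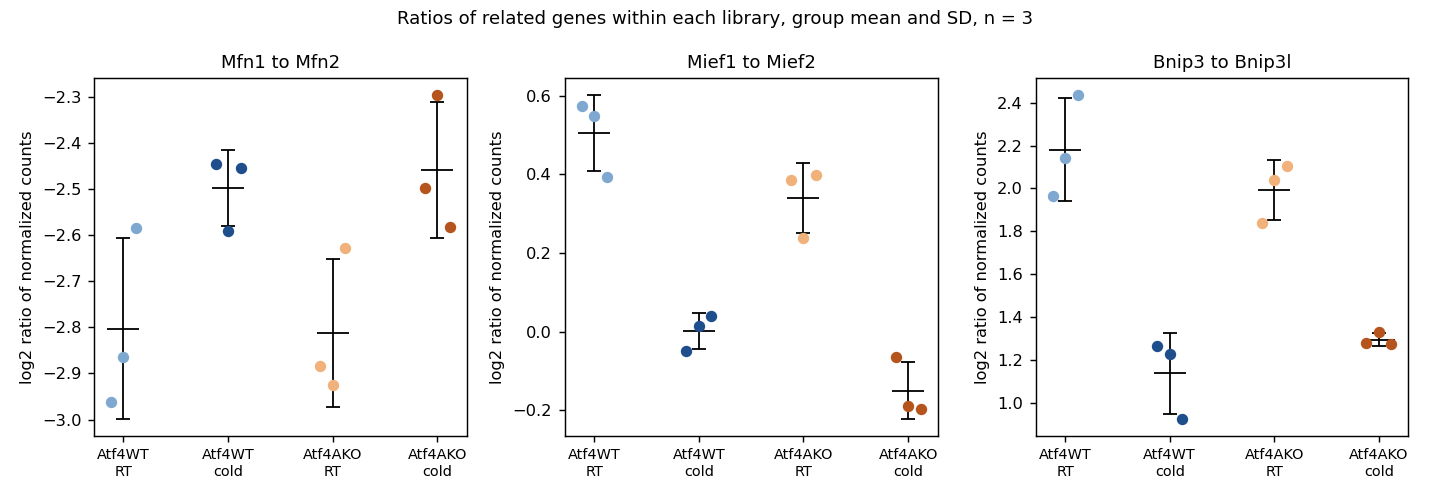
Log2 ratio of normalized counts within each library for Mfn1 to Mfn2, Mief1 to Mief2 and Bnip3 to Bnip3l (1 point per library, bars show mean ± SD, n = 3; each panel has its own axis, which does not start at 0). The log2 ratio of Bnip3 to Bnip3l was 1.84 to 2.44 at RT and 0.92 to 1.33 after cold.

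No member was called between the genotypes, in comparisons that use the same libraries as the cold responses. After cold 0 of 10 genes were called between Atf4AKO and Atf4WT iWAT by limma, where 0.0298% of all genes (4 of 13404) passed. By unadjusted p-values under 0.05 there were also 0 of 10, beside 11.7% of all genes. On the recovered reads edgeR and DESeq2 called 0 of 10, where edgeR called 3 of 13404 and DESeq2 591 of 14101 genes. At RT 0 of 10 were called by all 3 tools, where limma called 0.00746% of all genes (1 of 13404), edgeR 1 of 13404 and DESeq2 4 of 14101. At RT 0 of 10 reached an unadjusted p under 0.05, beside 1.53% of all genes, and the libraries of the genotypes overlapped for all 10, where 6.3% of all genes did not overlap. The log2 differences lay between -0.051 (Fis1) and 0.30 (Bnip3) after cold and between -0.16 (Pink1) and 0.10 (Mtfp1) at RT. After cold 8 of the 10 lay above 0, with a median of 0.12 beside 0.046 over all genes tested. At RT these medians were 0.020 and 0.0056.

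**Figure D4:**
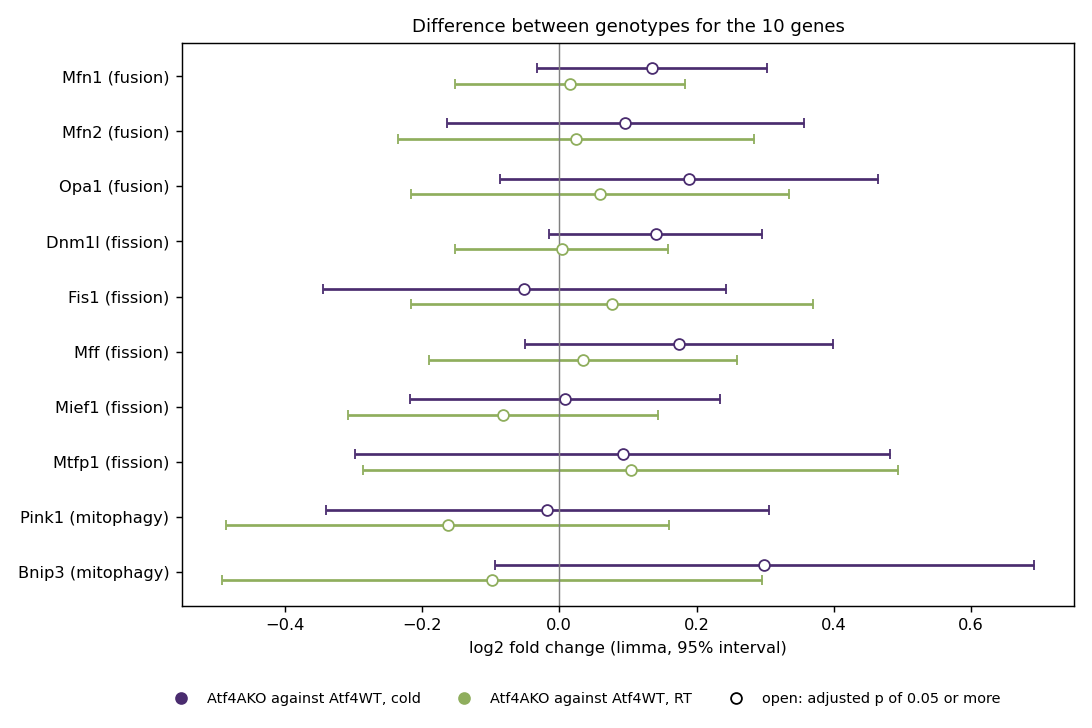
Log2 difference of Atf4AKO from Atf4WT iWAT for the 10 genes after cold (purple) and at RT (green), with 95% intervals from limma (n = 3 per group); open points did not pass an adjusted p of 0.05. All 20 intervals include 0, and the longest reach to 0.69 for Bnip3 after cold.

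For Dnm1l, measured most tightly, the 95% interval of the log2 difference was -0.015 to 0.30 after cold and -0.15 to 0.16 at RT. For Mfn1 it was -0.032 to 0.30 after cold, and Mfn1 was the only member whose cold-exposed libraries did not overlap between genotypes, at 1889.9, 2008 and 1980.2 in Atf4AKO and 1869, 1775 and 1711 in Atf4WT. In this comparison 16.5% of all genes did not overlap. For Mtfp1 the interval was -0.30 to 0.48, for Opa1 -0.086 to 0.46, for Bnip3 -0.094 to 0.69 and for Pink1 -0.34 to 0.31. Of 23 lymphocyte markers, limma and edgeR called 0 and DESeq2 23 in this comparison, and each tool gave all 23 an unadjusted p under 0.05. Their median log2 differences were -5.70 for B cell and -3.32 for T cell markers, so a gene not called by limma here may still differ. The genotypes differed after cold in the lymphocyte score, at 7.19 to 9.55 in Atf4WT and 3.62 to 5.08 in Atf4AKO libraries. These scores did not overlap, so score and genotype cannot be fully told apart after cold. With the lymphocyte score as a covariate limma called 0 of 10 members and 0 of 13404 genes. Mfn2 (-0.17), Opa1 (-0.23), Mff (-0.16), Mief1 (-0.30), Mtfp1 (-0.61) and Bnip3 (-0.044) then had log2 differences below 0, each with an adjusted p of 0.999.

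Mief1 lies next to Atf4. In mm10 it spans chr15:80234018-80253371 on the plus strand, and 1812 bases separate its end from the start of Atf4 (chr15:80255184-80257541, plus strand). Mief1 was 1146, 1393 and 1165 in Atf4AKO and 1300.5, 1295 and 1085 in Atf4WT iWAT after cold, with overlap, and its log2 difference was 0.0084 (95% interval -0.22 to 0.23). At RT it was -0.082 (95% interval -0.31 to 0.14). The sign after cold changed to -0.036 with rescaling to the 75th percentile. Atf4 differed by -2.60 after cold (adjusted p = 6.44e-04) and by -1.61 at RT (adjusted p = 0.0762).

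Whether cold acted differently in Atf4AKO and Atf4WT iWAT was tested as an interaction. It was called for 0 of 10 genes by limma, edgeR and DESeq2. Over all genes limma called 0%, edgeR 0 of 13404 and DESeq2 128 of 13826. By unadjusted p-values under 0.05 it was 0 of 10, beside 6.92% of all genes. Bnip3 had the largest difference, 0.40 smaller a fall on the log2 scale in Atf4AKO iWAT (95% interval -0.16 to 0.95, unadjusted p = 0.145, adjusted p = 0.933 by limma). For Mtfp1 the difference was -0.011 (95% interval -0.56 to 0.54), and its sign was positive with edgeR (0.024) and DESeq2 (0.0087). For Pink1, called in Atf4WT and not in Atf4AKO iWAT, it was 0.14 (95% interval -0.31 to 0.60, adjusted p = 0.996).

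The wider pathway was described with 52 further genes of fusion and inner membrane structure, fission, mitophagy and transport, of which 50 were listed and 49 tested by limma. After cold 22 of the 49 were called higher and 2 lower in Atf4WT iWAT, and 27 higher and 0 lower in Atf4AKO iWAT, where 17% and 14.8% of all genes were higher and 14.9% and 11% lower. Their median log2 fold change was 0.28 in Atf4WT and 0.42 in Atf4AKO iWAT, beside 0.0026 and -0.032 over all genes tested. Fusion and inner membrane genes were called higher in 10 of 15 cases in Atf4WT and 11 of 15 in Atf4AKO, and fission genes in 5 and 6 of 10. Of 18 mitophagy genes 4 were higher and 1 lower in Atf4WT, and 6 were higher in Atf4AKO iWAT. Of 6 transport genes 3 were higher and 1 lower in Atf4WT, and 4 were higher in Atf4AKO iWAT. Between genotypes 0 were called at either temperature by limma, edgeR or DESeq2. At an unadjusted p under 0.05 these tools gave 5, 8 and 5 after cold and 0, 1 and 0 at RT. By limma 11.7% and 1.53% of all genes reached it. After cold 45 of the 49 log2 differences by limma lay above 0, with a median of 0.12 beside 0.046 over all genes tested.

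**Figure D5:**
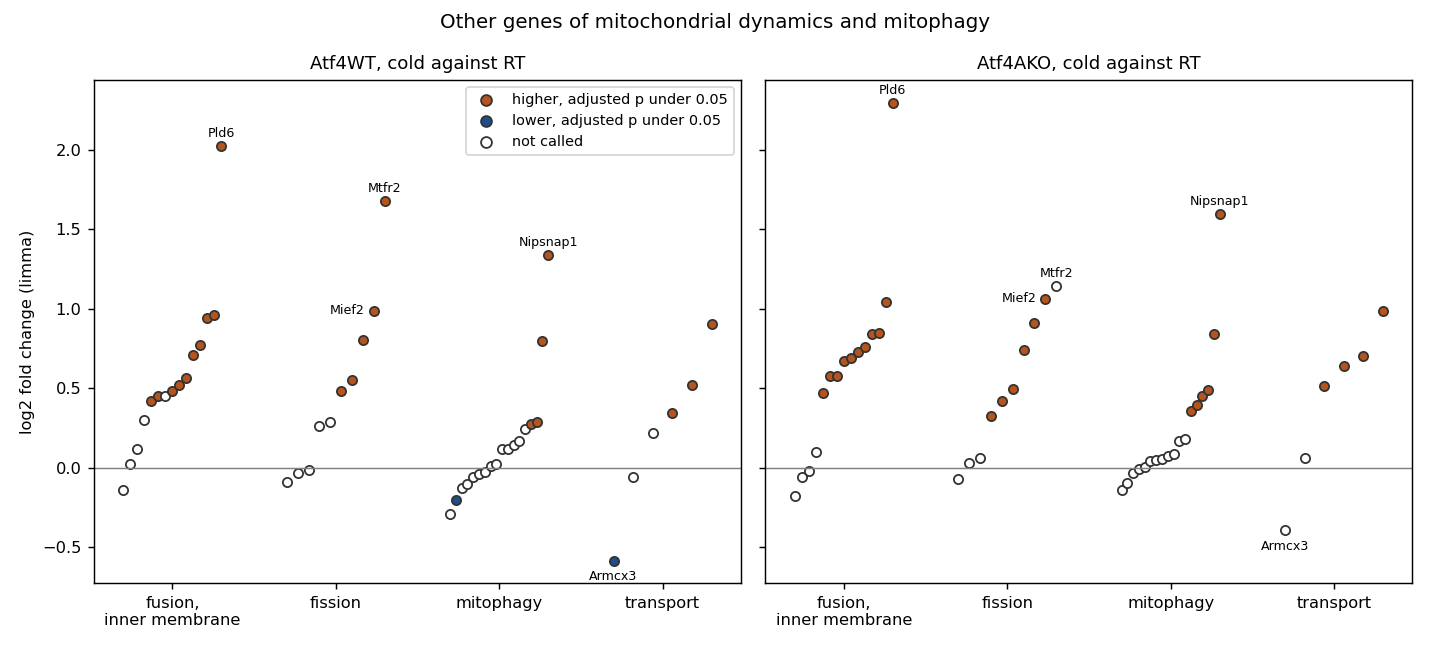
Log2 fold change of cold-exposed over RT libraries for the 49 tested genes beyond the 10 members, by role, in Atf4WT (left) and Atf4AKO (right) iWAT; each point is a gene, orange is called higher, blue called lower, white not called. Pld6 lies highest in both genotypes at 2.02 and 2.30, and 2 genes were called lower in Atf4WT and 0 in Atf4AKO iWAT.

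The largest rises in Atf4WT iWAT were in Pld6, a mitochondrial phospholipase that favours fusion, in Mtfr2, a fission regulator, and in Nipsnap1, a protein that flags damaged mitochondria. Pld6 was low, 11.03, 11.5 and 15.8 at RT and 74.99, 46.4 and 46.1 after cold, with a log2 fold change of 2.02 (SE 0.35, adjusted p = 0.00175). Mtfr2 was 12.9, 7.7 and 6.49 at RT and 26.7, 29.6 and 33.9 after cold (1.68, adjusted p = 0.0268), a call lost without any of 4 Atf4WT libraries (RT replicates 1 and 2, cold replicates 1 and 2, adjusted p = 0.0665 to 0.0775), without both muscle-rich libraries (0.106) and with the lymphocyte score (0.276). Nipsnap1 went from 152 ± 27.9 to 382 ± 9.91 (1.34, adjusted p = 1.66e-04). In Atf4AKO iWAT the leading genes called were Pld6 (2.30, adjusted p = 0.00107), Nipsnap1 (1.60, 7.65e-05) and Mief2 (1.06, 2.92e-04). Mtfr2 (1.14, adjusted p = 0.12) did not pass the test there, and its RT and cold-exposed libraries overlapped. Mief2 had risen in Atf4WT iWAT too, from 615 ± 7.08 to 1228 ± 153 (0.99, adjusted p = 3.85e-04).

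Of these 49 genes, those called lower in Atf4WT iWAT were Armcx3, which takes part in mitochondrial transport, and the autophagy receptor Nbr1. Armcx3 fell by 0.58 on the log2 scale (adjusted p = 0.0115) and Nbr1 by 0.20 (adjusted p = 0.0334). With the lymphocyte score both calls were lost (adjusted p = 0.0694 for Armcx3 and 0.377 for Nbr1). Nbr1 also lost its call without RT replicates 0 or 1 or cold replicates 0, 1 or 2 (0.0555 to 0.121), in the fit of only the groups compared (0.0818) and without both muscle-rich libraries (0.0926).

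For the 3 called members with the largest change in Atf4WT iWAT, the genes with the most similar profile were found among 13403 others, by the root mean square distance between centred log2 values over the 12 libraries. Nearest to Mtfp1 were Ppif (0.09), Ndufaf4 (0.09) and Cycs (0.11). Nearest to Bnip3 were Peli2 (0.12), Zfp93 (0.13) and Ttc8 (0.14). Nearest to Opa1 were Pnpla8 (0.06), Immt (0.06) and Psme3 (0.06). The 12 libraries share the cold and RT groups, so any gene with a like cold response lies near.

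Sequences upstream of the genes were read to show what lies at the starts of the members that moved most in each direction, with motifs chosen after the values were known. All 10 members had at least 1 RefSeq promoter window in GRCm38.p6 (15 windows), and the 250 bases before each start were searched on both strands. The motifs were the hypoxia response core ACGTG, the NRF1 motif, the estrogen-related receptor motif AAGGTCA and the C/EBP-ATF response element TGATGNAA. NRF1 matches were found for Opa1 and Bnip3, 2 of 10 members, beside 2.07% of 27025 genes. The hypoxia response core was found for Bnip3 and for 1 of the 3 windows of Mfn2, 2 of 10 members beside 18.5% of genes. The estrogen-related receptor motif and the C/EBP-ATF element were found in 0 of 10 members, beside 4.7% and 3.91% of genes, which says only that these letters are not in these windows. The bases printed here end before the annotated gene, and capitals mark motif matches. In Opa1 the capitals are the NRF1 motif, in Bnip3 the NRF1 motif and then the hypoxia response core on both strands, overlapping as CACGTG, and Mtfp1, the gene with the largest rise, holds no match.
Mtfp1 (chr11:4095446-4095681, minus strand): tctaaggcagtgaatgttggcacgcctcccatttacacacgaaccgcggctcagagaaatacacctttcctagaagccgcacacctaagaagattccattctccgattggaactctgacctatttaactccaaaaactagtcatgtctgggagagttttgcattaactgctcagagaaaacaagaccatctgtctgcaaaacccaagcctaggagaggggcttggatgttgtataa
Opa1 (chr16:29579084-29579333, plus strand): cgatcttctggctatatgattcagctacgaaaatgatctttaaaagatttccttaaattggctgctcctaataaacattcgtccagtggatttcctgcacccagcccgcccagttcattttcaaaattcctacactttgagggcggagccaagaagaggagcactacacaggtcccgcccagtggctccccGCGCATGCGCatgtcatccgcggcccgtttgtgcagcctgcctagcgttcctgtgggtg
Bnip3 (chr7:138909520-138909756, minus strand): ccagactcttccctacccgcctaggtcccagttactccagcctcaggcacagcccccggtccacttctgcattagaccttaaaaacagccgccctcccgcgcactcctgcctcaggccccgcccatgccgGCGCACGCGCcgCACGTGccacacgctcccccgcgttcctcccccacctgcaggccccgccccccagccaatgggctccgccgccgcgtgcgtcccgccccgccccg

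The spans of several members, introns included, overlap those of annotated neighbours. Overlap between exons was not computed. In the GENCODE annotation of mm10, Dnm1l (chr16:16312230-16358959, minus strand) overlaps the antisense gene Gm49521 over 9757 bases, and Bnip3 (chr7:138890836-138909519, minus strand) overlaps the antisense gene Gm45507 over 3712 bases and the processed pseudogene Gm18258 over 852 bases. Mief1 contains the coding gene AC140267.1 on its own strand (213 bases). Mff overlaps Gm28941 on its own strand (1017 bases) and C430014B12Rik on the opposite strand (280 bases). Mfn2 overlaps the processed pseudogene Gm13156 on the opposite strand (321 bases). Pink1 overlaps the microRNA genes Mir7019 (69 bases) and Gm27646 (110 bases) on its own strand. None of these overlapping genes was among the listed genes. The libraries were strand-specific, but the strand setting of the counting is not given in the sources used here. Whether reads of these neighbours entered the counts of the members is therefore not known. Mtfp1 (chr11:4091480-4095445, minus strand), Opa1 (chr16:29579334-29654884, plus strand), Mfn1 (chr3:32529465-32579239, plus strand) and Fis1 (chr5:136953275-136966234, plus strand) overlap no other annotated gene.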

How the data were processed

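The 12 libraries of polyadenylated iWAT RNA fell into 4 groups of 3 by their labels. The values deposited by the authors are a normalized signal: reads mapped to mm10 with STAR, counted with featureCounts and divided by DESeq2 size factors. Only genes with a read in every library are listed. Dividing by the value of 1 read gave whole reads (largest deviation 0.000313). Replicates differed by more than sampling noise (chi-square per degree of freedom 34.5 to 69.8).

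The test was limma 3.58.1 (R 4.3.3) on log2(value + 1) with 4 group means, for 13404 genes with a mean of at least 10. The members and gene lists were chosen with earlier results of these data known. Named genes were all members, the called pathway genes with the 3 largest rises and falls per genotype, Atf4 and Ucp1 as label checks, and the 3 nearest profiles of 3 members. Ucp1 rose by 7.67 and 7.51 on the log2 scale in Atf4WT and Atf4AKO iWAT. Syt15, entered on the transport list by mistake, and 2 older symbols of listed genes were dropped, and 1 further gene of the pathway list is not reported here. Spg7 and Calcoco2 were not among the listed genes, and Gdap1 was below the filter. Endothelial, macrophage and epithelial markers were listed for 8, 7 and 2 of 8 genes, with 3 of 8 endothelial markers called lower after cold in Atf4WT iWAT and 1 lower and 1 higher in Atf4AKO iWAT. The median log2 fold change after cold was -0.62 and -0.96 for macrophage and -0.42 and -0.60 for epithelial markers in Atf4WT and Atf4AKO iWAT. Of these, 0 of 7 macrophage and 0 of 2 epithelial markers were called in either genotype. Summed macrophage counts were 12706 in Atf4WT cold replicate 1 and 4410 in Atf4AKO cold replicate 1. The other cold-exposed libraries had 26193.5 to 32694, and the RT libraries 22037 to 40461.5.

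Alternatives were pseudocounts of 0.5 and 5, no filter, a fit of only the groups compared, the 75th percentile, a replicate block, the lymphocyte score, edgeR 4.0.16, DESeq2 1.42.0, leaving out each library, and leaving out 2 libraries. The limma test of the Atf4WT cold response was checked on simulated reads. Python 3.11.15, pandas 2.3.3, numpy 2.4.6 and matplotlib 3.10.9 were used for the rest. Promoters came from RefSeq (GRCm38.p6) and gene positions from GENCODE.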

Additional observations from a re-analysis of the deposited data

How the results depend on the processing

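With 3 libraries per group at 25719476 or more reads each, replicates differed over all genes by more than sampling noise. Whether this held for each gene was not tested, and Pld6 and Mtfr2 had low counts. Versions of the upstream tools are not given in the sources used here.

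Of the 10 members, 8 were called in the Atf4WT cold response, and 4 with the lymphocyte score as a covariate and 4 without both muscle-rich libraries, the latter chosen after seeing the data. Leaving out 1 library gave 7 to 8 members called in Atf4WT and 6 to 7 in Atf4AKO iWAT. Between genotypes, and for the difference of responses, 0 members were called under each alternative. Whether same-numbered libraries share a batch cannot be told from the labels, and the main fit used no pairing. The correlations of same-numbered deviations ran from -0.19 to 0.39, and for replicate 1 from 0.20 to 0.39. Per comparison, 2 to 4 of 6 libraries correlated best with their own number. With a replicate block 8 members were called in Atf4WT and 8 in Atf4AKO iWAT (Pink1 added, adjusted p = 0.0332 by limma), and 0 between genotypes. Over all genes the block moved the calls from 4273 to 4858 in the Atf4WT and from 3467 to 4129 in the Atf4AKO cold response. Between genotypes they moved from 4 to 189 after cold and from 1 to 3 at RT.

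Signs turned at log2 values near 0 and at larger ones. Without both muscle-rich libraries they turned in the Atf4WT cold response for Mfn2 (-0.0098) and Fis1 (-0.0099), between genotypes after cold for Fis1 (0.033), at RT for Mfn2 (-0.046), Opa1 (-0.045), Fis1 (-0.014), Mff (-0.0075) and Mtfp1 (-0.062), and in the difference of responses for Fis1 (0.047) and Mtfp1 (0.18). With the lymphocyte score they turned in the Atf4AKO cold response for Fis1 (-0.016), between genotypes after cold for Mfn2 (-0.17), Opa1 (-0.23), Mff (-0.16), Mief1 (-0.30), Mtfp1 (-0.61) and Bnip3 (-0.044), and in the difference of responses for Mfn2 (-0.18), Opa1 (-0.26), Mff (-0.17), Mief1 (-0.20) and Pink1 (-0.058). With the 75th percentile they turned for Fis1 in the Atf4AKO cold response (-0.023), Mief1 after cold (-0.036) and Dnm1l at RT (-0.0053) between genotypes, with edgeR for Dnm1l at RT (-0.0046) and the difference of Mtfp1 (0.024), and with DESeq2 for the latter (0.0087). The genotype differences after cold of Bnip3, Opa1 and Mff, which turned with the lymphocyte score, were 0.30, 0.19 and 0.17 in the main fit. The cause of the turned signs was not tested.

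Leaving out 1 library gave ranges across 0 for Mfn2 in the Atf4WT cold response (-0.0019 to 0.12) and for Fis1 (-0.046 to 0.16) in the Atf4AKO cold response. Between genotypes after cold it did so for Fis1 (-0.17 to 0.075), Pink1 (-0.17 to 0.12), Mief1 (-0.082 to 0.059) and Mtfp1 (-0.054 to 0.21). At RT it did so for Mfn1 (-0.043 to 0.055), Dnm1l (-0.011 to 0.015), Mfn2 (-0.078 to 0.13), Opa1 (-0.045 to 0.18), Fis1 (-0.014 to 0.15), Mff (-0.039 to 0.12), Mtfp1 (-0.062 to 0.23) and Bnip3 (-0.23 to 0.032). For the difference of responses it did so for Mtfp1 (-0.16 to 0.15), Mfn2 (-0.037 to 0.17) and Pink1 (-0.010 to 0.28).

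Counts over all genes that moved by over 1.5 times were, after cold between genotypes, 4 with limma against 591 with DESeq2, 189 with the block, 556 without both muscle-rich libraries, 517 without Atf4WT cold replicate 0, 146 without Atf4WT RT replicate 2, 2 without Atf4WT cold replicate 1, Atf4AKO cold replicate 0 or 2, and 0 with the lymphocyte score or only the groups compared. At RT 1 gene became 2 to 4 (DESeq2 4). The difference of responses went from 0 to 128 with DESeq2, 267 without both muscle-rich libraries and 65 without Atf4WT cold replicate 0. The Atf4WT cold response went from 4273 to 1882 with the lymphocyte score, and the Atf4AKO cold response from 3467 to 2210 without Atf4AKO RT replicate 0 and to 2281 without cold replicate 1.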
